A study of Mus musculus with 20 samples.

Results

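Livers of orchiectomized male mice kept in normoxia (ORX_Nx, 5 libraries) were set against livers of sham-operated male mice kept in intermittent hypoxia (Sham_IH, 5 libraries), so that each group carried 1 of the study's treatments and not the other. The members were all libraries that the labels place in these groups, 10 of the 20 samples of the series. Orchiectomy is removal of the testes and lowers circulating testosterone, and intermittent hypoxia is repeated cycling of inspired oxygen, used as a model of sleep apnoea. Both exposures lasted 2 weeks, and the labels name no strain, age, hormone level or oxygen level. The other groups, sham-operated mice in normoxia (Sham_Nx, 4 libraries; mouse 1 was not analysed here) and orchiectomized mice in intermittent hypoxia (ORX_IH, 5 libraries), entered the same fit. Each library was made from poly(A)-selected RNA of 1 liver sample, and the summed estimated counts ran from 29291573 (Sham_IH mouse 1) to 69550879 (ORX_Nx mouse 3) over all 19 libraries. Levels are given as CPM, counts scaled to a common library size. By library totals alone, before scaling factors, 3 counts correspond to at most 0.102 CPM in any library.

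Mouse liver is one of the most sexually dimorphic organs outside the reproductive tract. Testicular androgen shapes the pulsatile release of growth hormone from the pituitary, the pulses activate the transcription factor STAT5B in hepatocytes, and male-biased genes are then kept high and female-biased genes low. Oxygen shortage acts through another route, in which hypoxia-inducible factors are stabilised and bind a short core motif at genes of glycolysis, iron handling and red cell formation. Cycling of oxygen is also known for its links to hepatic cholesterol and fatty acid metabolism.

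A direct comparison of the single treatments changes operation and exposure together. The comparison of ORX_IH with Sham_Nx changes the operation in the same direction and the exposure in the opposite one, and it shares no library with the first. A gene called in both comparisons with the same sign therefore followed the operation, and one called in both with opposite signs followed the exposure. A call is an adjusted p under 0.05 in edgeR's quasi-likelihood test with Benjamini-Hochberg adjustment over the 16164 genes tested.

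Of these genes, 3177 differed between ORX_Nx and Sham_IH, which is 19.7% of those tested. In ORX_Nx 1771 were higher, 11% of all genes, and 1406 were higher in Sham_IH, 8.7% of all genes. Among the 1027 that differed at least 2-fold, 811 were higher in ORX_Nx and 216 in Sham_IH. The split of calls depends on scaling: 55.7% were higher in ORX_Nx with the scaling used here, 64.4% with upper quartile scaling and 88.4% with library totals alone, where the median difference of all genes moved from -0.00097 to 0.15 on the log2 scale. All 5 libraries of one group lay above all 5 of the other in 1911 genes, 11.8% of those tested, and 1712 of these were called. The count without any 1 of the 19 libraries stayed between 2313 and 3364, but it was 1841 without ORX_Nx mice 4 and 5.

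The second comparison called 1394 genes, 8.62% of those tested, 570 higher in ORX_IH (3.53%) and 824 higher in Sham_Nx (5.1%). With library totals alone 76.4% of its calls were higher in ORX_IH against 40.9% with the scaling used here. Genes called in both comparisons numbered 479, which is 15.1% of the first list and 34.4% of the second. Of these, 430 (2.66% of genes tested) had the same sign and 49 (0.303%) had opposite signs. The operation genes split into 167 higher and 263 lower in the orchiectomized groups, and the exposure genes into 32 higher and 17 lower in normoxia. Skeletal muscle markers were high in 4 libraries of the second comparison, at 1151 and 682 summed CPM in ORX_IH mice 1 and 2 and 190.4 and 46.1 in Sham_Nx mice 2 and 3, and without those libraries it called 132 genes, with 94 in the operation class and 3 in the exposure class. It called 818 genes without Sham_Nx mouse 2 and 807 without Sham_Nx mouse 5. The exposure class fell to 26 genes without either of these mice and to 28 without Sham_IH mouse 1 or ORX_IH mouse 2, and it rose to 104 without ORX_Nx mouse 5.

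**Figure D1:**
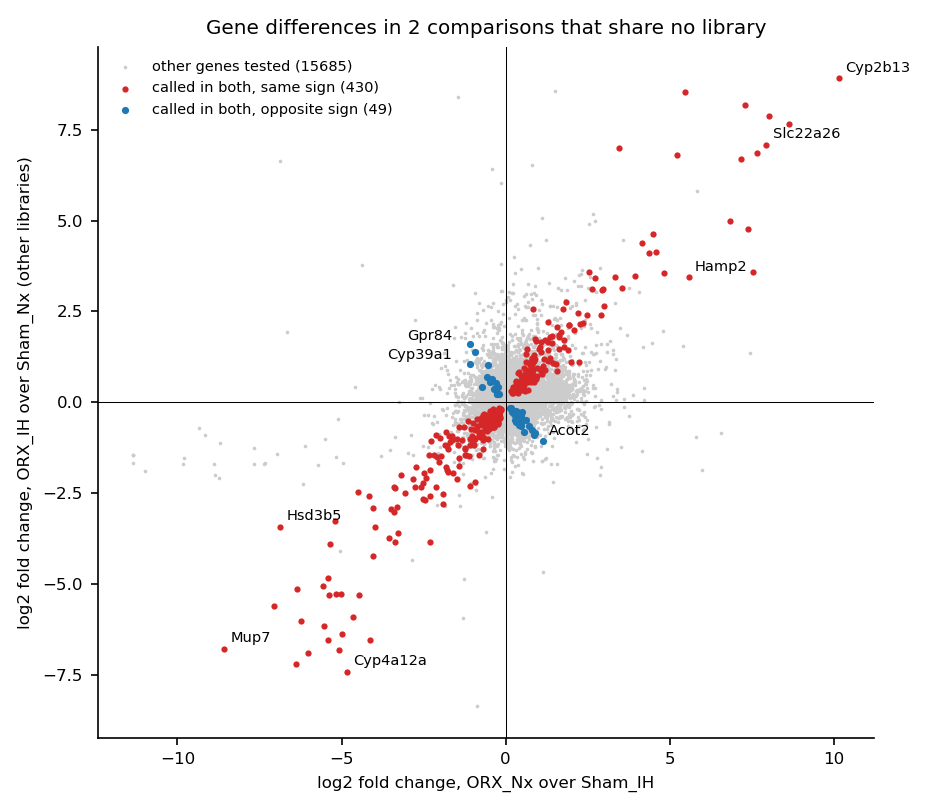
Each point is 1 gene tested, with its log2 fold change of ORX_Nx over Sham_IH on the horizontal axis and of ORX_IH over Sham_Nx, from other libraries, on the vertical axis. The 430 genes called in both with the same sign lie in the lower left and upper right, where Slc22a26 and Mup7 are labelled, and the 49 called with opposite signs lie close to the centre in the other corners of the plot.

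In the plot of both comparisons the operation genes reached far larger differences than the exposure genes. Of the genes called in the direct comparison 73.9% had the same sign in the second, against 60.9% of all genes tested, and of those that differed at least 2-fold 879 of 1027 did (85.6%). The untreated livers lay nearer to Sham_IH than to ORX_Nx in 77.6% of called genes, against 62.0% of all genes. The livers with both treatments lay nearer to ORX_Nx in 52.8% of called genes, against 51.5% of all genes. These positions reuse the libraries that made the calls and are a description. In a principal component analysis the 5 ORX_Nx libraries ran from -78.4 to -18.4 on the first component, which held 35.1% of the variance, and the 5 Sham_IH libraries from 32.3 to 48.4.

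The upstream sequences of 6 genes named in these results are shown here because growth hormone acts on sex-biased liver genes through STAT5B and hypoxia through hypoxia-inducible factors. Each is the 250 bases before the transcript start, from RefSeq on GRCm38.p6 and not on the authors' build, 5′ to 3′ on the gene's own strand. Capitals mark TTCNNNGAA, the STAT5-type motif, which reads the same on both strands, and ACGTG, the core of the hypoxia response element, searched on both strands.
Slc22a26, chr19:7802668-7802917, minus strand: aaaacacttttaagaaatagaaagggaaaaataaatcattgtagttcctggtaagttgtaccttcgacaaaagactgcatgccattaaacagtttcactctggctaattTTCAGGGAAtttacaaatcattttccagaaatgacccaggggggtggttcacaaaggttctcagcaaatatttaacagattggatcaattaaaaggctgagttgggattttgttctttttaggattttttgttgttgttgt
Hamp2, chr7:30924182-30924431, minus strand: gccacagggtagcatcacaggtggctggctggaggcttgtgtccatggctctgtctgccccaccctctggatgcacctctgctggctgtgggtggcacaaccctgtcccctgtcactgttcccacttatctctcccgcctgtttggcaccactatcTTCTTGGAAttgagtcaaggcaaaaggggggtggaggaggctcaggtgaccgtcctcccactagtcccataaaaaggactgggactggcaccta
Sult3a1, chr10:33857472-33857721, plus strand: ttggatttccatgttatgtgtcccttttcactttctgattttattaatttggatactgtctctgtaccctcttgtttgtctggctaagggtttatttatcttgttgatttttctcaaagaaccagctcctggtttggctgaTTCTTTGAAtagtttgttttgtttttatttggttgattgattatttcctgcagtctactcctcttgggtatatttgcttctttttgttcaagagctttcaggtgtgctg
A1bg, chr15:60921271-60921520, minus strand: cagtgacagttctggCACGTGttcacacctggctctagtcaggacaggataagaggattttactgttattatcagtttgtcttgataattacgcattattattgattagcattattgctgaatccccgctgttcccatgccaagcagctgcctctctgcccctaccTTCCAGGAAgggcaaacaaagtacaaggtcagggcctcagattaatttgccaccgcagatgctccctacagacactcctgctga
Mup7, chr4:60070476-60070725, minus strand: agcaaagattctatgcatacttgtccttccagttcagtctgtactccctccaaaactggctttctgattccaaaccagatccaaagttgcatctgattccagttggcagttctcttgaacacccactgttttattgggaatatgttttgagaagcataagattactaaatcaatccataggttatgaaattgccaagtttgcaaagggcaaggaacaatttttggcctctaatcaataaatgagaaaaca
Nceh1, chr3:27182754-27183003, plus strand: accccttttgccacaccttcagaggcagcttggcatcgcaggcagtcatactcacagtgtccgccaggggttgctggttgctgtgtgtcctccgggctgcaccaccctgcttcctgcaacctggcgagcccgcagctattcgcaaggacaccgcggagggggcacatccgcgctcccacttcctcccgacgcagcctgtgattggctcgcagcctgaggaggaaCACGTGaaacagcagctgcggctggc

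The first 4 are female-biased or castration-responsive genes higher in ORX_Nx and hold the STAT5-type motif beginning 141, 94, 109 and 84 bases before the start. They are the 4 of 12 genes with a promoter entry, among the 15 with the largest increase in ORX_Nx, that hold it (33.3%). Promoters of that set without the motif are not shown, so the printed sequences do not tell how common it is. The motif was present in 7.02% of all 32851 promoters in the table and in 902 of the 12023 genes tested that have an entry (7.5%). It was found in 0 of the 9 genes with an entry among the 15 with the largest increase in Sham_IH, Mup7 being one of these, in 31 of 307 operation genes (10.1%) and in 3 of 39 exposure genes (7.69%). ACGTG lay in 11 of 39 exposure genes (28.2%), Nceh1 among them, in 67 of 307 operation genes (21.8%) and in 2781 of 12023 genes tested (23.1%). In Nceh1 and A1bg the core overlaps itself on the opposite strand, so that 1 stretch was counted on both. A match of letters is not a binding site.

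Male-biased liver genes were lower in ORX_Nx almost throughout. The 24 listed and tested genes had a median difference of -3.11, against -0.00097 over all genes tested. Of these, 23 were called, all of them higher in Sham_IH (95.8%, against 8.7% of all genes). All 23 were without overlap between the groups, which held for 11.8% of all genes. The exception was Bcl6, a repressor of STAT5 targets, with log2 fold change -1.06 ± 0.52, adjusted p = 0.163. The count was 23 under each of the 33 alternatives run. In the second comparison 21 of the 24 were higher in Sham_Nx (87.5%, against 5.1% of all genes), and 14 without the 4 muscle-gene libraries. Several of these genes have near-identical copies (Mup, Cyp4a12, Serpina1), and the authors' counting may divide shared reads among copies.

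Mup20 encodes darcin, the male pheromone that attracts females to scent marks. In Sham_IH mice 1 to 5 it stood at 7946, 2776, 5918, 7937 and 4088 CPM, and in ORX_Nx mice 1 to 5 at 82.1, 73.1, 103, 251 and 98.1 CPM. The lowest Sham_IH liver, mouse 2, lay far above the highest ORX_Nx liver, mouse 4 (log2 fold change -5.56 ± 0.48, adjusted p = 1.44e-06). In Sham_Nx it ranged from 4610.3 to 5751 CPM and in ORX_IH from 84.0 to 334 CPM, so that intact animals overlapped each other whatever the exposure. Mup7, another major urinary protein, a carrier of volatile pheromones, showed the largest decrease among the genes named here. Its levels were 8561, 3511, 10932, 9308 and 11792 CPM in Sham_IH and 13.7, 62.8, 6.31, 28.7 and 4.69 CPM in ORX_Nx (log2 fold change -8.57 ± 1.01, adjusted p = 2.83e-05). Every ORX_Nx library was far below every Sham_IH library, and Sham_IH mouse 2 had the lowest value of its group for both genes. The members Mup1, Mup11, Mup12, Mup14, Mup19, Mup9 and Mup15 were also among the 15 largest decreases, with differences from -6.23 ± 0.55 for Mup1 to -5.07 ± 0.85 for Mup15.

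The operation genes also held Hsd3b5, Cyp7b1 and Srd5a1, enzymes of steroid metabolism. Hsd3b5, a male-specific 3-ketosteroid reductase, stood at 216, 96.2, 137, 246 and 163 CPM in Sham_IH and at 2.56, 1.80, 1.65, 0.703 and 0.391 CPM in ORX_Nx (log2 fold change -6.87 ± 0.66, adjusted p = 4.68e-06). It was also lower in ORX_IH than in Sham_Nx (-3.43 ± 0.56, adjusted p = 0.000849), where ORX_IH libraries ranged from 1.77 to 27.7 CPM, above most ORX_Nx livers. The decrease was smaller in the second comparison, and the contrast of the comparisons (their difference divided by 2, positive when higher in normoxia) was -1.72 ± 0.40, adjusted p = 0.0229. That call was lost with limma-voom, with library numbers 1 to 16 only and without ORX_Nx mice 4 and 5. It was also lost without Sham_Nx mouse 5 and without the 4 muscle-gene libraries. Cyp7b1, the oxysterol hydroxylase of the alternative bile acid pathway, was 345, 189.7, 292, 369.8 and 222 CPM in Sham_IH and 33.6, 46.7, 43.3, 54.5 and 37.2 CPM in ORX_Nx (log2 fold change -2.72 ± 0.27, adjusted p = 6.66e-06). The groups were separated by a wide gap in every pair of libraries. Srd5a1, the 5-alpha reductase that converts testosterone to dihydrotestosterone, ranged from 89.6 to 148 CPM in Sham_IH and from 28.8 to 32.9 CPM in ORX_Nx (log2 fold change -1.81 ± 0.21, adjusted p = 2.74e-05).

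The fatty acid enzymes Cyp4a12a, Elovl3 and Cyp2u1, male-biased in mouse liver, were lower in ORX_Nx as well. Cyp4a12a, an omega-hydroxylase that makes 20-HETE from arachidonic acid, stood at 219, 98.7, 137, 165 and 121 CPM in Sham_IH and 2.23, 3.97, 0.949, 9.35 and 10.1 CPM in ORX_Nx (log2 fold change -4.82 ± 0.52, adjusted p = 1.18e-05). Its difference was larger in the second comparison (-7.42 ± 0.60), and Sham_Nx livers, at 338 to 491 CPM, all lay above the Sham_IH livers. The contrast of the comparisons called Cyp4a12a, but that call was lost in 18 of 31 alternatives, limma-voom among them. Elovl3, an elongase of very long saturated fatty acids, ranged from 70.4 to 133.99 CPM in Sham_IH and 0.447 to 8.45 CPM in ORX_Nx (log2 fold change -4.47 ± 0.47, adjusted p = 9.89e-06). Cyp2u1, a fatty acid hydroxylase, was 3.91-fold higher in Sham_IH (log2 fold change -1.97 ± 0.19, adjusted p = 4.68e-06), without overlap. Outside the male-biased list, Phyh, the peroxisomal enzyme that starts phytanic acid breakdown, ranged from 1677 to 2044 CPM in Sham_IH and from 898 to 1129.7 CPM in ORX_Nx (log2 fold change -0.89 ± 0.083, adjusted p = 3.25e-06). Mug1, the protease inhibitor murinoglobulin, ranged from 6263 to 8136 CPM and from 1831 to 2928 CPM in the same groups (log2 fold change -1.72 ± 0.14, adjusted p = 1.27e-06). Both were among the 10 genes of smallest p higher in Sham_IH and had the same sign in the second comparison, at -0.47 ± 0.087 and -0.92 ± 0.15.

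Obp2a, an odorant-binding lipocalin, was at 0 counts in 4 of 5 ORX_Nx libraries and at 0.391 to 3.28 CPM in Sham_IH. No fold is given for it because only mouse 3 of ORX_Nx held any count, at 0.0688 CPM.

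Female-biased liver genes moved the other way. Of 32 listed genes 30 were tested, and 23 of these rose in ORX_Nx (76.7%, against 11% of all genes). Only 1, Cyp39a1, was higher in Sham_IH (3.33%, against 8.7%), and the median difference was 2.57. Without any 1 library the number higher in ORX_Nx lay between 20 and 24. In the second comparison 24 of the 30 were higher in ORX_IH (against 3.53% of all genes), and 14 without the 4 muscle-gene libraries. The 6 that did not pass in the direct comparison were Cyp2b10, Cyp17a1, Sult1e1, Cux2, Nipal1 and Cyp2g1. Cux2, a female-specific repressor of male genes, differed by 0.11 ± 0.31 in the direct comparison and by 3.04 ± 0.36, adjusted p = 4.64e-05 in the second.

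Slc22a26, an organic anion transporter of female liver and kidney, had the smallest adjusted p of all genes tested. It stood at 0.18, 0.223, 0.193, 0.284 and 0.764 CPM in Sham_IH and at 122.5, 111, 59.9, 89.6 and 56.3 CPM in ORX_Nx (log2 fold change 7.95 ± 0.37, adjusted p = 2.96e-10). Every ORX_Nx liver held at least 56.3 CPM, while no sham-operated liver reached 1 CPM. In the second comparison the difference was 7.10 ± 0.39, adjusted p = 5.04e-09, with ORX_IH livers from 39.8 to 80.7 CPM. Slc22a27, a transporter of the same family, ranged from 0.138 to 1.24 CPM in Sham_IH and 7.32 to 23.0 CPM in ORX_Nx (log2 fold change 4.49 ± 0.47, adjusted p = 9.89e-06).

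Cytochromes P450 of the Cyp2a and Cyp2b families, which hydroxylate steroids and drugs, were among the largest increases. Cyp2a4, a testosterone 15-alpha-hydroxylase, was 0.431, 0.428, 0.22, 0.373 and 1.33 CPM in Sham_IH and 171, 137.8, 88.8, 37.8 and 159.8 CPM in ORX_Nx (log2 fold change 7.65 ± 0.58, adjusted p = 5.5e-07). ORX_Nx mouse 4 was the lowest of its group and still lay far above every Sham_IH liver. Cyp2b9 was 1.87, 18.6, 0.413, 2.98 and 37.5 CPM in Sham_IH and 669, 733, 663, 397 and 317 CPM in ORX_Nx (log2 fold change 5.48 ± 0.81, adjusted p = 0.000264). Sham_IH mice 2 and 5 stood above the other sham-operated livers for Cyp2b9, while all 4 Sham_Nx livers were at 0.496 to 2.76 CPM. Cyp2b13 was at or near 0 in Sham_IH, from 0 to 0.16 CPM, and at 9.08 to 231 CPM in ORX_Nx. These genes share sequence with near copies, so the division of reads among them is uncertain.

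Hamp2, a liver peptide related to hepcidin and higher in female mice, was 2.80, 2.66, 2.81, 5.93 and 5.56 CPM in Sham_IH and 222, 276, 208, 152 and 105.5 CPM in ORX_Nx (log2 fold change 5.58 ± 0.44, adjusted p = 8.23e-07). It was called in both comparisons, yet ORX_IH livers, at 59.9, 80.7, 21.2, 90.8 and 83.3 CPM, all lay below all ORX_Nx livers. The difference in the second comparison was 3.45 ± 0.44, and the contrast of the comparisons was 1.07 ± 0.27, adjusted p = 0.034. That call was lost in 13 of 31 alternatives, among them limma-voom and the fit without the 4 muscle-gene libraries. They include the fits without any 1 of Sham_Nx mice 3 and 5, Sham_IH mice 1 to 3, ORX_Nx mouse 1 and ORX_IH mice 1 and 2. Sult3a1, a sulfotransferase of female liver, ranged from 0 to 0.142 CPM in Sham_IH, 3.91 to 37.4 CPM in ORX_Nx and 23.1 to 59.7 CPM in ORX_IH. A1bg, a secreted immunoglobulin-like protein of female liver, was 3.23, 2.03, 2.92, 2.56 and 6.61 CPM in Sham_IH and 59.1, 86.6, 34.4, 9.76 and 310.2 CPM in ORX_Nx (log2 fold change 4.83 ± 0.81, adjusted p = 0.000769). ORX_Nx mouse 5 was the highest and mouse 4 the lowest in that group, and neither overlapped Sham_IH. Vldlr, a receptor that takes up triglyceride-rich lipoproteins, ranged from 4.21 to 7.31 CPM in Sham_IH and from 14.9 to 30.3 CPM in ORX_Nx (log2 fold change 2.08 ± 0.22, adjusted p = 1.01e-05).

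The lists of smallest p values also held genes outside the sex-biased lists. Atp23, a mitochondrial inner membrane protease, stood at 3.23, 3.33, 3.22, 4.17 and 4.41 CPM in Sham_IH and 16.0, 15.5, 17.2, 11.9 and 9.44 CPM in ORX_Nx (log2 fold change 1.93 ± 0.17, adjusted p = 1.44e-06). All orchiectomized livers were above all sham-operated ones, also in the second comparison (2.14 ± 0.18). Sh3gl2, an endophilin of membrane trafficking, changed by 2.65 ± 0.27, and Rtn4, a reticulon that shapes the endoplasmic reticulum, by 0.93 ± 0.09. Scpep1, a serine carboxypeptidase, changed little in size but with little spread, from 31.6 to 36.6 CPM in Sham_IH to 48.0 to 52.1 CPM in ORX_Nx (log2 fold change 0.58 ± 0.053, adjusted p = 2.77e-06). Rsph4a, a radial spoke protein of cilia, was below 0.22 CPM in every Sham_IH library and at 1.17 to 3.80 CPM in ORX_Nx.

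**Figure D2:**
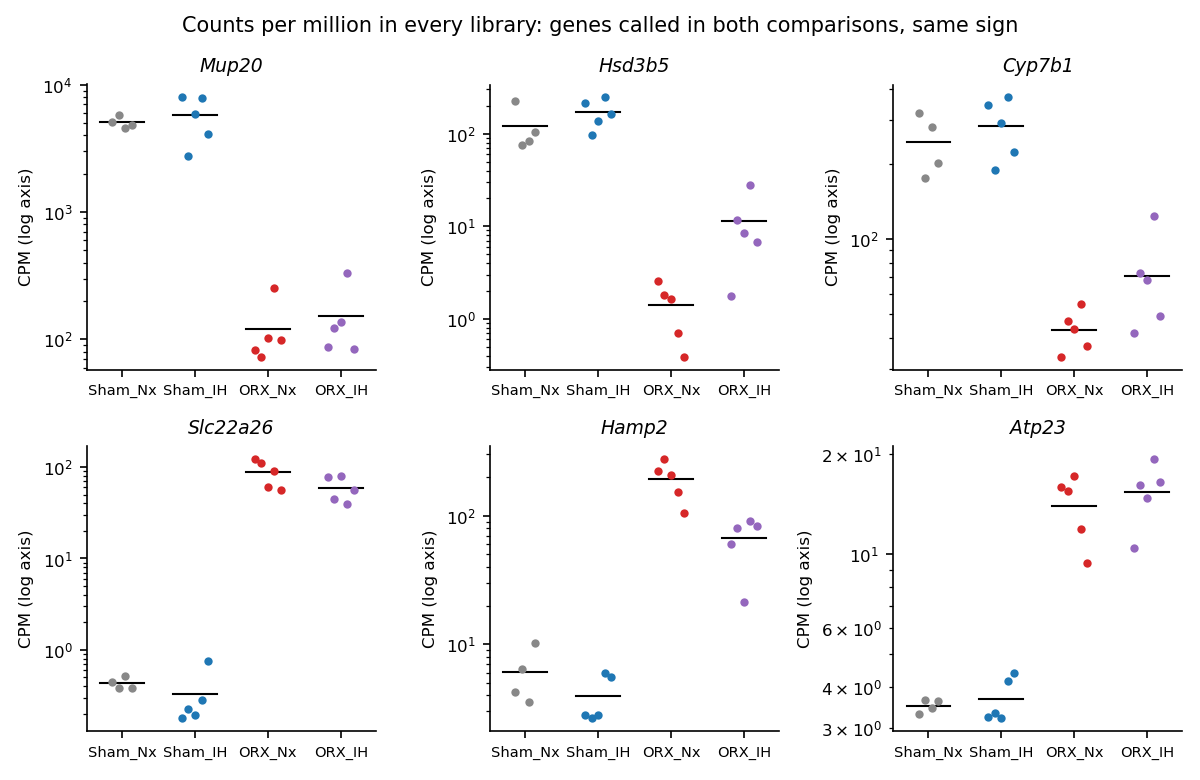
Points are CPM of 6 genes in each of the 19 libraries on a log axis, by group, with the group mean as a line. Mup20, Hsd3b5 and Cyp7b1 are low and Slc22a26, Hamp2 and Atp23 high in both orchiectomized groups, and for each gene no ORX_Nx library overlaps a Sham_IH library.

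In the plot of operation genes the groups pair by operation, and Hsd3b5 and Hamp2 show the partial shift of ORX_IH described above. To look for differences by exposure beyond the 49 genes called in both comparisons, the contrast of the comparisons was tested across all genes and called 733, 4.53% of those tested, 416 higher in normoxia (2.57%) and 317 higher in intermittent hypoxia (1.96%). That number rests on few libraries. It was 390 without Sham_Nx mouse 2, 409 without Sham_Nx mouse 3, 288 without Sham_Nx mouse 5, 375, 421 and 389 without Sham_IH mice 1, 2 and 3, and 388 without ORX_IH mouse 2. Without the 4 libraries high in muscle genes 8 genes were called, and this leaves 2 Sham_Nx and 3 ORX_IH libraries. The part of muscle RNA in these results was not tested.

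Of 13 lipid droplet genes the exposure contrast called 4 higher in normoxia, against 2.57% of all genes, and none higher in hypoxia. The count higher in normoxia was 1 without the 4 muscle-gene libraries. None of the lipid droplet or fatty acid synthesis genes was among the 49 called in both comparisons, so Pparg, Cd36, Scd1 and Elovl5 rest on the direct comparison and this contrast. Pparg, the nuclear receptor that drives lipid storage, was 5.57, 5.70, 4.92, 6.12 and 5.93 CPM in Sham_IH and 11.6, 12.2, 10.8, 12.5 and 8.71 CPM in ORX_Nx (log2 fold change 0.98 ± 0.11, adjusted p = 1.49e-05). All ORX_Nx livers were above all Sham_IH livers. Sham_Nx, at 8.07 to 9.78 CPM, and ORX_IH, at 6.29 to 9.02 CPM, lay above Sham_IH and overlapped the lowest ORX_Nx liver, mouse 5. The exposure contrast of Pparg was 0.63 ± 0.079, adjusted p = 0.00134 and stayed called in every alternative run for that contrast. Cd36, a fatty acid uptake receptor, was 29.9, 27.5, 14.1, 23.9 and 39.1 CPM in Sham_IH and 107, 92.1, 42.7, 80.6 and 75.9 CPM in ORX_Nx (log2 fold change 1.56 ± 0.26, adjusted p = 0.000798; exposure contrast 0.86 ± 0.19, adjusted p = 0.0173). Of the 13 lipid droplet genes tested these 2 were called in the direct comparison (15.4%), a share near the 11% of all genes higher in ORX_Nx.

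Scd1, the desaturase that makes oleic acid, was the most abundant of these genes. It stood at 706, 800.1, 881, 1009 and 1119 CPM in Sham_IH and 5698, 5752, 5784, 3889 and 2228 CPM in ORX_Nx (log2 fold change 2.37 ± 0.50, adjusted p = 0.00334). Every Sham_IH liver lay below every ORX_Nx liver, while Sham_Nx livers, at 4523, 3210.0, 1337 and 8395 CPM for mice 2 to 5, and ORX_IH livers, at 959.5, 1954, 929.5, 5973 and 2965 CPM, each spread widely. The exposure contrast was 1.57 ± 0.35, adjusted p = 0.0182, a call lost in 4 alternatives, among them the fit without Sham_Nx mouse 5. Elovl5, an elongase of polyunsaturated fatty acids, ranged from 369 to 503 CPM in Sham_IH and from 565 to 757 CPM in ORX_Nx (log2 fold change 0.55 ± 0.12, adjusted p = 0.00491). The fatty acid synthesis list held 21 tested genes, of which 3 were higher in ORX_Nx (Scd1, Elovl5 and Lpin1) and none in Sham_IH, a share near the 11% of all genes. Lpin1, a phosphatidate phosphatase, lost its call in 21 of 33 alternatives, where its adjusted p reached 0.299. None of 29 fatty acid oxidation and ketogenesis genes was called by edgeR with the settings used here or by limma-voom, DESeq2 called 1 in each direction, and 2 in each direction had an unadjusted p under 0.05. Under other edgeR settings up to 3 were higher in ORX_Nx, with library totals alone, and up to 1 in Sham_IH. The second comparison had 7 of the 29 higher in Sham_Nx (24.1%, against 5.1% of all genes), but 3 without Sham_Nx mouse 2, ORX_IH mouse 1 or ORX_IH mouse 2, 4 without Sham_Nx mouse 4 or 5, 11 without ORX_Nx mouse 5, and 0 without the 4 muscle-gene libraries.

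The genes named next were in the exposure class, called in both comparisons with opposite signs. Rab30, a Golgi GTPase, was 9.30, 10.2, 9.49, 11.6 and 10.2 CPM in Sham_IH and 16.1, 20.8, 16.3, 18.5 and 12.2 CPM in ORX_Nx (log2 fold change 0.72 ± 0.13, adjusted p = 0.00123; second comparison -0.65 ± 0.14, adjusted p = 0.00556). Nceh1, a cholesteryl ester hydrolase, was 20.1, 20.7, 22.3, 24.2 and 21.1 CPM in Sham_IH and 32.9, 30.5, 28.0, 31.4 and 26.0 CPM in ORX_Nx (log2 fold change 0.46 ± 0.11, adjusted p = 0.00585; second comparison -0.64 ± 0.11, adjusted p = 0.00131). Both were lower in hypoxia in each comparison with no overlap in the direct one, and for Nceh1 the Sham_Nx livers were the highest of all, at 31.5 to 46.0 CPM. Acot2, a mitochondrial acyl-CoA thioesterase, ranged from 13.3 to 19.2 CPM in Sham_IH and 25.1 to 43.3 CPM in ORX_Nx (log2 fold change 1.13 ± 0.25, adjusted p = 0.00506; second comparison -1.07 ± 0.26, adjusted p = 0.0159). Ccng2, cyclin G2, Tmem64, a membrane protein, Tor3a, a torsin ATPase, Zfpm1, a GATA cofactor, Tgoln1, a trans-Golgi protein, and Hykk, a hydroxylysine kinase, completed the named genes higher in normoxia, with differences from 0.40 ± 0.085 (Zfpm1) to 0.90 ± 0.18 (Ccng2).

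On the hypoxia side, Apom, the apolipoprotein that carries sphingosine-1-phosphate, was 178, 185, 177, 226 and 174 CPM in Sham_IH and 123, 158, 145, 139.4 and 116 CPM in ORX_Nx (log2 fold change -0.46 ± 0.11, adjusted p = 0.00559). It had the opposite sign in the second comparison (0.57 ± 0.11, adjusted p = 0.00363), and every Sham_IH liver lay above every ORX_Nx and Sham_Nx liver. Cyp39a1, which hydroxylates 24-hydroxycholesterol on the way to bile acids, was 53.4, 90.2, 66.6, 43.6 and 64.4 CPM in Sham_IH and 24.1, 22.4, 42.3, 39.9 and 21.2 CPM in ORX_Nx (log2 fold change -1.08 ± 0.24, adjusted p = 0.00429). It is on the female-biased list, yet it was higher with hypoxia in both comparisons (1.06 ± 0.25, adjusted p = 0.0135 in the second). Gpr84, a receptor for medium-chain fatty acids, ranged from 0.657 to 1.65 CPM in Sham_IH and 0.337 to 0.937 CPM in ORX_Nx (log2 fold change -1.08 ± 0.27, adjusted p = 0.00917). Atf4, a transcription factor of the integrated stress response and not in the exposure class, differed by -0.50 ± 0.085 (adjusted p = 0.000755) in the direct comparison. Of these exposure contrasts only those of Pparg, Rab30, Nceh1 and Apom kept their call in every alternative, and each of the others named in these paragraphs lost it without the 4 muscle-gene libraries.

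**Figure D3:**
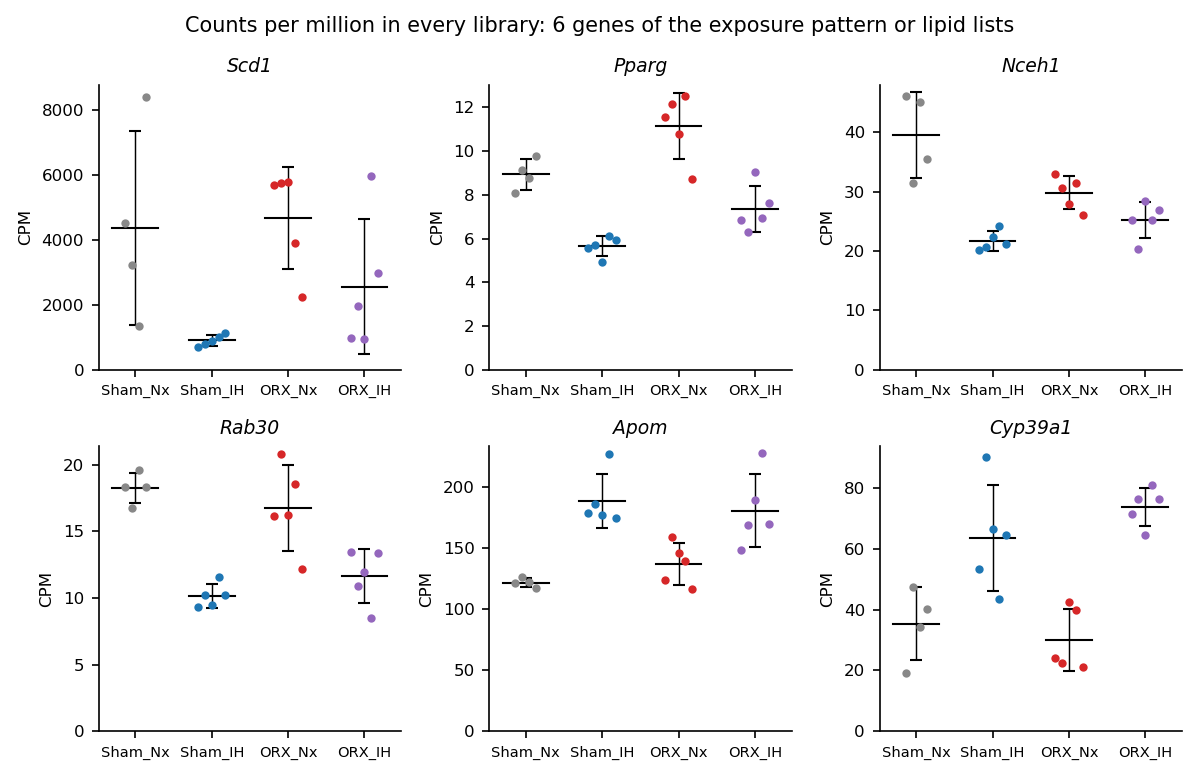
Points are CPM of 4 exposure genes (Nceh1, Rab30, Apom, Cyp39a1) and of Scd1 and Pparg, called in the direct comparison and the exposure contrast only, in each of the 19 libraries on linear axes from 0, by group, with the mean as a line and 1 SD as a bar. Scd1, Pparg, Nceh1 and Rab30 are lower in Sham_IH than in ORX_Nx and Apom and Cyp39a1 higher, with no overlap between these groups in any panel.

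The plot of exposure genes shows that the untreated livers sat with or beyond the ORX_Nx livers for Nceh1, Rab30 and Apom. Cholesterol synthesis showed a direction without many calls. Of 24 genes 22 were lower in ORX_Nx, with a median of -0.47, but only Idi1, an isoprenoid isomerase, was called (log2 fold change -0.92 ± 0.31, adjusted p = 0.0422), and it lost the call without any of Sham_IH mice 1 to 4, ORX_Nx mice 1, 4 or 5, or Sham_Nx mouse 2. In the second comparison the median was 0.85, higher in ORX_IH. The exposure contrast called 9 of the 24, all higher in hypoxia (against 1.96% of all genes). That count was 5 without Sham_Nx mouse 2, Sham_IH mouse 1, ORX_Nx mouse 4 or ORX_IH mouse 4, 4 without Sham_Nx mouse 3, Sham_Nx mouse 5 or Sham_IH mouse 3, and 0 without the 4 muscle-gene libraries. The summed level of the list was 2769, 3006, 2874, 4011 and 2324 CPM in Sham_IH and 2044, 3116, 3042, 2059 and 1467 CPM in ORX_Nx, with overlap.

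Interferon response genes were higher in ORX_Nx. Of 28 genes 21 rose (75%, against 11% of all genes) and none fell, with a median of 1.25. Without ORX_Nx mice 4 and 5, 20 were higher. The summed level of the list was 1133, 952, 868, 922 and 911 CPM in Sham_IH and 1932, 1853, 1181, 1155 and 1532 CPM in ORX_Nx. The lowest ORX_Nx livers, mice 3 and 4, were barely above the highest Sham_IH liver. Gbp3, an interferon-induced GTPase, was 8.41, 5.70, 4.43, 5.87 and 5.15 CPM in Sham_IH and 32.4, 26.3, 14.4, 11.1 and 42.2 CPM in ORX_Nx (log2 fold change 2.10 ± 0.34, adjusted p = 0.000553). Ifi44, an interferon-induced cytosolic protein, changed by 2.22 ± 0.38, Ifit3, an inhibitor of viral RNA translation, by 1.78 ± 0.30, Gbp2 by 1.73 ± 0.29 and Oas1a, an oligoadenylate synthetase, by 1.56 ± 0.27, each without overlap between the groups. In the second comparison none of the 28 was called with the settings used here, with 1 at an unadjusted p under 0.05, and none by limma-voom or DESeq2. With library totals alone 1 was called higher in ORX_IH, as was 1 without ORX_Nx mice 4 and 5. At 1652 summed CPM, Sham_Nx mouse 2 was also high, as was ORX_IH mouse 5 at 1613.

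Markers of blood-derived and resident immune cells were also higher in ORX_Nx. Within that group the interferon list was lowest in mouse 4, where the Kupffer cell list was highest. In bulk tissue, fewer cells of a type and less RNA per cell cannot be told apart. Of 14 Kupffer cell and macrophage markers 13 rose in ORX_Nx (92.9%, against 11% of all genes), with a median of 1.49. The list summed to 277, 261, 208, 236 and 265 CPM in Sham_IH and 555, 356, 313, 1332 and 865 CPM in ORX_Nx. The groups did not overlap, but mice 4 and 5 of ORX_Nx stood far above the rest, and without both of them 9 were higher with a median of 0.74. In the second comparison none of the 14 was called and none had an unadjusted p under 0.05, with a median of 0.25. Clec4f, a Kupffer cell lectin, was 50.6, 50.1, 39.1, 48.5 and 49.5 CPM in Sham_IH and 93.9, 74.4, 60.7, 175 and 101 CPM in ORX_Nx (log2 fold change 1.09 ± 0.21, adjusted p = 0.00191). Cd5l, a macrophage survival protein, ranged from 35.5 to 43.6 CPM and from 52.1 to 246 CPM in the same groups (log2 fold change 1.67 ± 0.32, adjusted p = 0.00174).

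Lymphocyte markers gave 12 of 18 higher in ORX_Nx (66.7%, against 11% of all genes) and none lower, with a median of 1.56. Without ORX_Nx mice 4 and 5, 7 were higher. The summed level was 14.2, 13.0, 11.6, 12.4 and 13.0 CPM in Sham_IH and 31.7, 24.5, 21.4, 43.2 and 82.8 CPM in ORX_Nx. All ORX_Nx livers exceeded all Sham_IH livers. In the second comparison none of the 18 was called with the settings used here, with a median of 0.44. At an unadjusted p under 0.05, 4 were higher there in ORX_IH and 0 in Sham_Nx. Ptprc, the pan-leukocyte phosphatase CD45, was 8.19, 6.50, 4.84, 5.36 and 6.54 CPM in Sham_IH and 17.9, 12.1, 10.1, 28.99 and 47.8 CPM in ORX_Nx (log2 fold change 1.89 ± 0.35, adjusted p = 0.00146). Cd79b, a B cell receptor subunit, changed by 1.84 ± 0.33. Neutrophil markers summed to 2.87, 4.30, 2.81, 3.57 and 2.51 CPM in Sham_IH and 4.37, 3.03, 3.10, 40.6 and 12.0 CPM in ORX_Nx. Only mice 4 and 5 of ORX_Nx stood clearly apart there, while mouse 1 was just above Sham_IH and mice 2 and 3 overlapped it. None of the neutrophil markers was called in the second comparison.

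Acute phase and inflammation genes gave 13 of 28 higher in ORX_Nx (46.4%, against 11% of all genes) and none lower. The median was 0.75. Without ORX_Nx mice 4 and 5 the count was 8 higher and 3 lower, and with limma-voom it was 4. Saa2, a serum amyloid A protein, was 2.33, 4.24, 2.97, 4.42 and 2.79 CPM in Sham_IH and 19.8, 14.8, 15.6, 102 and 317 CPM in ORX_Nx (log2 fold change 4.78 ± 0.96, adjusted p = 0.00254). ORX_Nx mice 4 and 5 were far above the other 3, which still lay above Sham_IH. Il1rn, the interleukin 1 receptor antagonist, was 1.01, 1.17, 1.24, 0.87 and 0.835 CPM in Sham_IH and 4.70, 3.84, 2.85, 6.78 and 11.3 CPM in ORX_Nx (log2 fold change 2.52 ± 0.32, adjusted p = 7.19e-05). The chemokine Ccl2 changed by 2.43 ± 0.50 and Orm3, an acid glycoprotein, by 3.55 ± 0.75. In the second comparison 7 of the 28 were higher in ORX_IH (against 3.53% of all genes). That count was 4 without Sham_Nx mouse 2, 3 or 5 or ORX_IH mouse 1, and 11 without ORX_Nx mouse 4.

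Cell cycle genes gave 11 of 23 higher in ORX_Nx (47.8%, against 11% of all genes) and none lower, with a median of 0.76. Without ORX_Nx mice 4 and 5, 7 were higher. The summed level was 69.0, 72.3, 61.9, 67.7 and 71.5 CPM in Sham_IH and 121, 104, 122.4, 129 and 227 CPM in ORX_Nx, with no overlap and with mouse 5 the highest. Ccnd1, the cyclin of entry into the cell cycle and the most abundant of those called, was 14.1, 12.3, 8.17, 16.4 and 12.6 CPM in Sham_IH and 52.8, 37.6, 49.7, 36.0 and 127 CPM in ORX_Nx (log2 fold change 2.25 ± 0.30, adjusted p = 0.000112; second comparison 1.117 ± 0.31, adjusted p = 0.0322). Mki67, a proliferation marker, was 0.934, 0.875, 0.495, 0.39 and 1.30 CPM in Sham_IH and 2.59, 2.04, 3.23, 4.07 and 9.55 CPM in ORX_Nx (log2 fold change 2.42 ± 0.45, adjusted p = 0.00153), and Top2a, a topoisomerase of dividing cells, changed by 1.88 ± 0.35. The difference of Mki67 was -0.41 ± 0.45, adjusted p = 0.622 in the second comparison. The exposure contrast called 8 of the 23, all higher in normoxia (against 2.57% of all genes), and 0 without the 4 muscle-gene libraries.

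**Figure D4:**
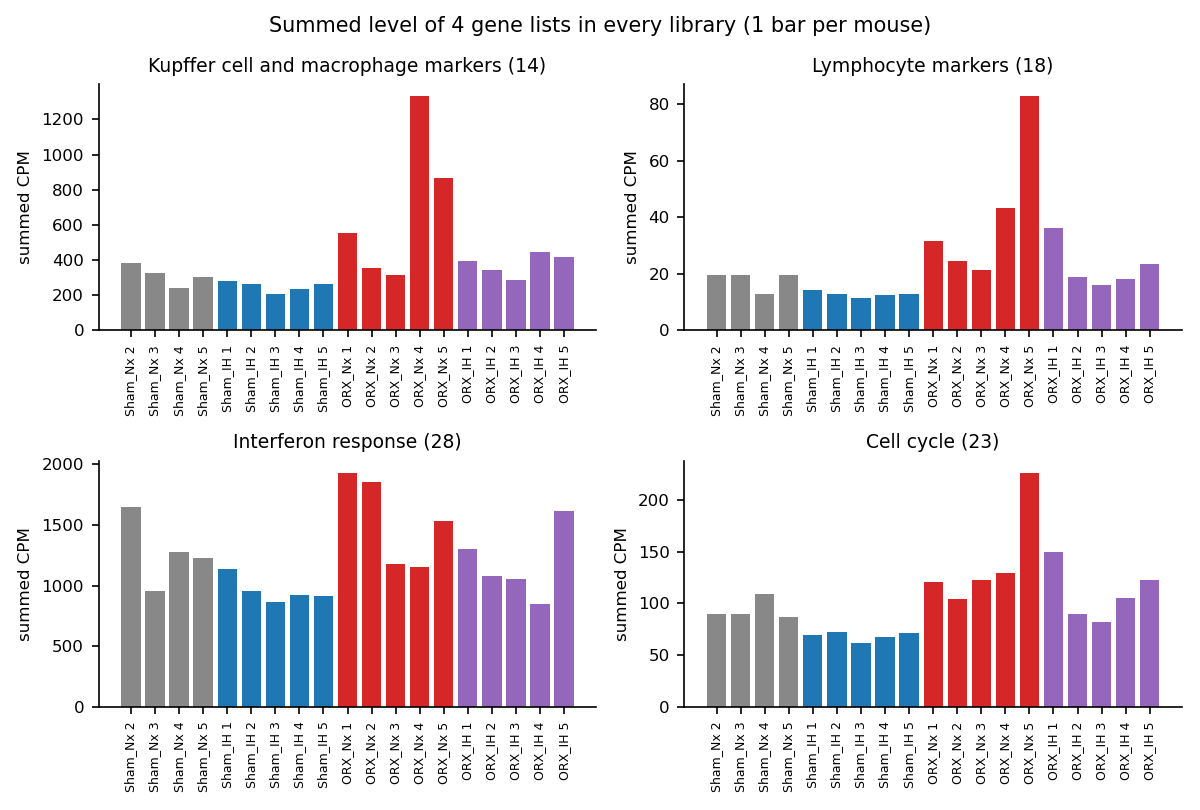
Bars are the summed CPM of 4 gene lists in each of the 19 libraries, coloured by group, with the number of genes in brackets. Kupffer cell markers reach 1332 CPM in ORX_Nx mouse 4 and lymphocyte markers 82.8 CPM in ORX_Nx mouse 5, against at most 277.5 and 14.2 CPM in Sham_IH.

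In the plot of list levels by library mice 4 and 5 stand highest within ORX_Nx for the Kupffer cell, lymphocyte and cell cycle lists, and mice 1 and 2 for the interferon list. Hepatocyte markers summed to 141367, 142363, 135102, 143359 and 141363 CPM in Sham_IH and 125146, 151216, 142005, 139454 and 96385 CPM in ORX_Nx, where mouse 5 was the lowest of all 19 libraries. No interferon, Kupffer cell, lymphocyte or cell cycle gene was lower in ORX_Nx at an unadjusted p under 0.05. The part of cell makeup in the other results was not tested. Stellate cell and fibroblast markers gave 4 of 14 higher in ORX_Nx (28.6%, against 11% of all genes). Without ORX_Nx mice 4 and 5 there were 2 higher and 1 lower. None of the 14 was called in the second comparison with the settings used here, where 5 were higher in ORX_IH at an unadjusted p under 0.05. Col3a1, a fibrillar collagen, was at 5.47 to 17.1 CPM in Sham_IH and 17.5 to 59.6 CPM in ORX_Nx (log2 fold change 1.55 ± 0.31, adjusted p = 0.00252).

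Pancreatic acinar markers were high in 1 library of the direct comparison. They summed to 14.0, 20.3, 11.1, 14.1 and 1193 CPM in Sham_IH mice 1 to 5 and 4.08, 6.27, 6.26, 4.84 and 7.23 CPM in ORX_Nx. Of 13 markers 10 were called higher in Sham_IH (76.9%, against 8.7% of all genes). None was called without Sham_IH mouse 5, which carried almost all of the signal. Cela1, an elastase, was 12.1, 9.73, 9.52, 11.5 and 101 CPM in Sham_IH and 3.56, 5.11, 3.95, 3.64 and 3.38 CPM in ORX_Nx. The male-biased list gave its 23 calls also without that library and without the 3 libraries highest in pancreatic genes. Muscle markers were at 10.2 summed CPM or less in all 10 libraries of the direct comparison.

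Of 23 androgen, oestrogen and growth hormone signalling genes 5 were higher in ORX_Nx (21.7%, against 11% of all genes) and 3 in Sham_IH (13%, against 8.7%). The number higher in ORX_Nx was 3 without ORX_Nx mouse 4, 2 with limma-voom and 8 with library totals alone, and the number higher in Sham_IH was 1 without ORX_Nx mice 4 and 5. Stat5b, the growth hormone pulse sensor itself, was 37.7, 38.2, 41.3, 38.2 and 37.3 CPM in Sham_IH and 45.7, 57.8, 61.4, 46.8 and 42.1 CPM in ORX_Nx (log2 fold change 0.40 ± 0.089, adjusted p = 0.00511). The groups did not overlap, by a small margin. Igfbp3, a carrier of insulin-like growth factors, changed by 0.95 ± 0.20. Of 34 genes of the hypoxia-inducible factor pathway 5 were higher in ORX_Nx (14.7%) and 3 in Sham_IH (8.82%), shares near those of all genes, with a median of 0.037. These counts were 12 and 1 with library totals alone, and 3 were higher in ORX_Nx without Sham_IH mouse 3, Sham_IH mouse 4 or ORX_Nx mouse 4. The number higher in Sham_IH was 1 without any of Sham_IH mice 1 to 4, ORX_Nx mice 1, 3 or 4, Sham_Nx mouse 3 or ORX_IH mouse 2. Pfkfb3, a switch of glycolytic flux, was 29.7, 24.2, 22.5, 29.3 and 36.6 CPM in Sham_IH and 17.9, 9.36, 8.42, 9.79 and 13.6 CPM in ORX_Nx (log2 fold change -1.27 ± 0.21, adjusted p = 0.000617), without overlap. Bhlhe40, a repressor of clock and metabolic genes, was higher in ORX_Nx (log2 fold change 1.15 ± 0.28, adjusted p = 0.0089) and also higher in ORX_IH than in Sham_Nx (1.01 ± 0.30), so it followed the operation.

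Alas2, the haem synthesis enzyme of red cell precursors, was 75.7, 37.4, 62.5, 69.4 and 60.1 CPM in Sham_IH and 23.8, 28.2, 22.9, 34.6 and 35.1 CPM in ORX_Nx (log2 fold change -1.08 ± 0.16, adjusted p = 0.000349). In the second comparison it differed by -2.31 ± 0.18, adjusted p = 6.77e-07, and ORX_IH livers, at 13.8 to 21.5 CPM, were the lowest. Alas2 was 1 of 2 called among 10 erythroid transcripts, both higher in Sham_IH (20%, against 8.7% of all genes). The other, Bpgm, a red cell mutase, lost its call in 6 alternatives, among them the fits without Sham_IH mouse 1 or ORX_Nx mouse 5. Cat, the catalase of peroxisomes, was 2421 to 2787 CPM in Sham_IH and 1220.1 to 2189 CPM in ORX_Nx (log2 fold change -0.49 ± 0.12, adjusted p = 0.00877). Slc39a4, a zinc importer, changed by 0.90 ± 0.18 and by 1.20 ± 0.19 in the second comparison.

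Bile acid, drug and zonation genes mixed both directions. Of 21 bile acid genes 2 were higher in ORX_Nx (9.52%, against 11% of all genes) and 5 in Sham_IH (23.8%, against 8.7%), and 3 in Sham_IH without Sham_IH mouse 3, without ORX_Nx mice 4 and 5 or with library totals alone. Besides Cyp7b1, Cyp27a1, the mitochondrial sterol hydroxylase, was 342 to 418 CPM in Sham_IH and 184 to 298 CPM in ORX_Nx (log2 fold change -0.60 ± 0.11, adjusted p = 0.00171), and Abcc3, a basolateral bile acid exporter, was 212 to 223 and 245 to 344 CPM (log2 fold change 0.53 ± 0.086, adjusted p = 0.000622). Of 30 xenobiotic genes 6 were higher in ORX_Nx (20%) and 1 in Sham_IH (3.33%), and 3 were higher without Sham_IH mouse 1, Sham_IH mouse 3, ORX_Nx mouse 2 or ORX_Nx mouse 3. Gsta1, a glutathione transferase, was 0.144, 0.186, 1.02, 0.639 and 0.124 CPM in Sham_IH and 1.46, 3.45, 2.96, 2.39 and 14.1 CPM in ORX_Nx (log2 fold change 3.52 ± 0.65, adjusted p = 0.00142), with mouse 5 of ORX_Nx far above the rest. Cyp3a25, a steroid and drug hydroxylase, was 688 to 822 and 390.3 to 548 CPM (log2 fold change -0.77 ± 0.15, adjusted p = 0.00176). Cyp2f2, a periportal P450, was 862 to 1198 and 336 to 736 CPM (log2 fold change -0.88 ± 0.18, adjusted p = 0.00294), and Aldh1b1, an aldehyde dehydrogenase of the same zone, changed by 1.36 ± 0.24. Periportal genes as a list gave 3 of 14 higher in ORX_Nx (21.4%) and 2 in Sham_IH (14.3%).

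All 13 mitochondria-encoded respiratory genes were lower in ORX_Nx, with 4 called (30.8%, against 8.7% of all genes) and a median of -0.21. The mitochondrial share of counts was 8.30 ± 0.745% in ORX_Nx and 8.86 ± 0.774% in Sham_IH (SD, n = 5 each). Without ORX_Nx mice 4 and 5 none of the 13 was called by edgeR. The nuclear-encoded respiratory, unfolded protein, heat shock, clock, glucose and amino acid lists each had between 1 and 4 genes called higher in Sham_IH and none higher in ORX_Nx, and between 0 and 7 higher in Sham_IH without any 1 library. The highest share was 15.4%, 4 of 26 nuclear-encoded respiratory genes, against 8.7% of all genes, and that count was 7 without ORX_Nx mouse 2, 1 without Sham_IH mouse 3 or ORX_Nx mouse 1, 3 or 5, and 0 with library totals alone.

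**Figure D5:**
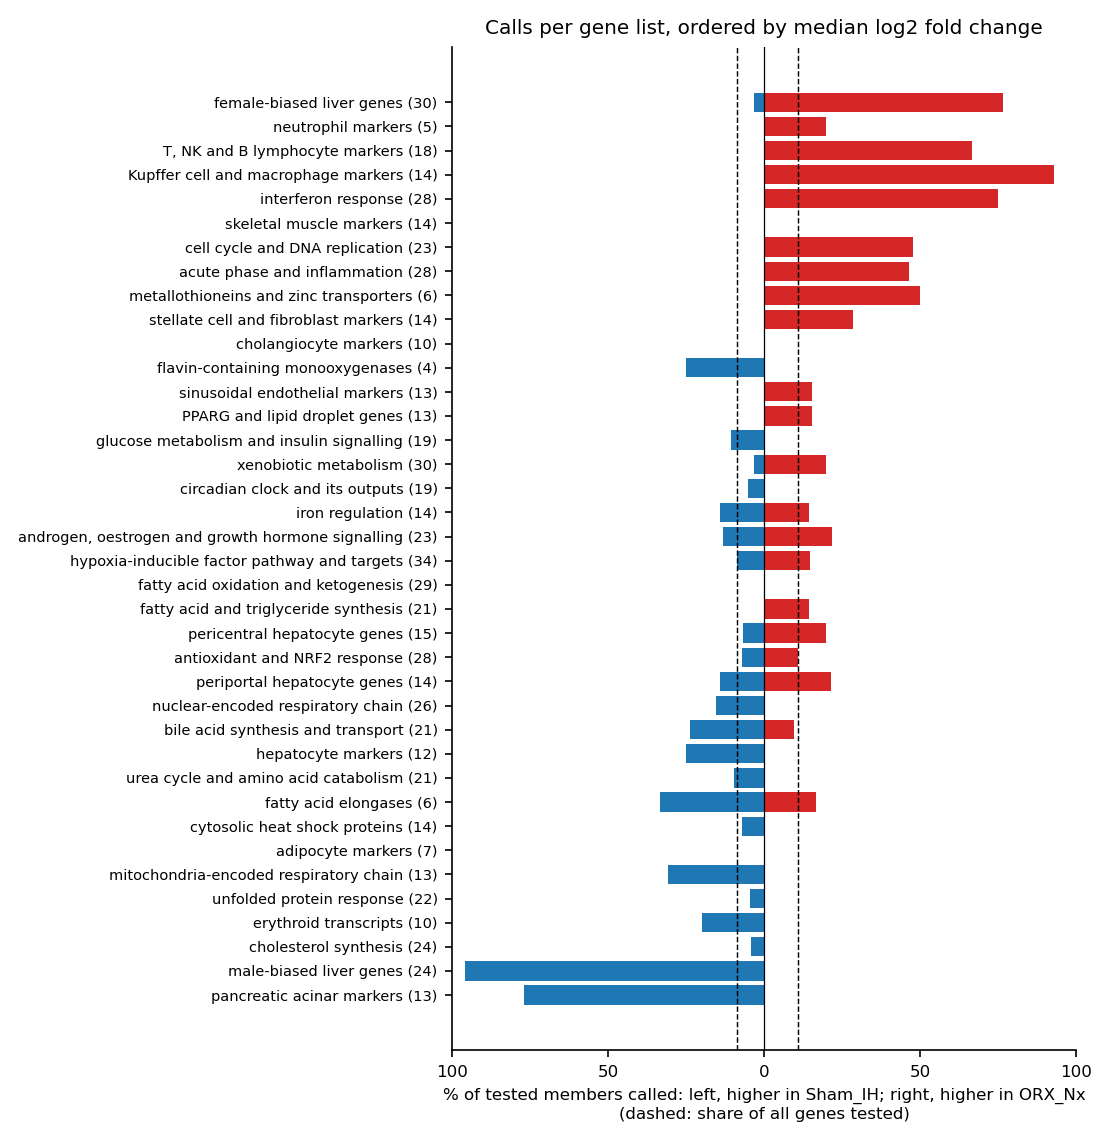
Bars give, for each list, the percentage of its tested genes called higher in ORX_Nx (right) or in Sham_IH (left), with the number tested in brackets and dashed lines at the shares of all genes. Kupffer cell, interferon and female-biased lists extend far to the right and male-biased and pancreatic lists far to the left, the last mostly through 1 library.

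The plot of calls per list places the flavin-containing monooxygenases, the genes in the study's title, near the middle. They oxidise amines and sulfides, including trimethylamine from gut bacteria. Fmo1, Fmo2, Fmo4 and Fmo5 were tested, while Fmo6 (25 counts in all) and Fmo9 (0) were too low. Fmo5, which also acts as a Baeyer-Villiger oxygenase, was 535, 571, 539, 627 and 514 CPM in Sham_IH and 388, 383, 349, 445 and 488 CPM in ORX_Nx (log2 fold change -0.44 ± 0.14, adjusted p = 0.039). The groups did not overlap, and the two-sided exact permutation test then gives p = 0.00794 (n = 5 each), the smallest that 5 against 5 libraries allow, so it restates that separation. The edgeR call was lost without any 1 of Sham_IH mice 1 to 4 or ORX_Nx mice 1 to 4, with library totals alone, with no filter on low counts and without the 4 muscle-gene libraries, and in the second comparison the difference was 0.011 ± 0.15, adjusted p = 0.975.

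The other 3 members did not pass the test in the direct comparison. Fmo1 was 245, 245, 253, 202 and 289 CPM in Sham_IH and 359.7, 361, 304, 231 and 220.2 CPM in ORX_Nx (log2 fold change 0.26 ± 0.14, adjusted p = 0.203), with overlap, and it was called with library totals alone and without ORX_Nx mice 4 and 5. Fmo2, better known as a lung enzyme, was 43.9, 32.6, 40.3, 19.5 and 51.4 CPM in Sham_IH and 96.6, 59.1, 38.0, 40.2 and 50.5 CPM in ORX_Nx (log2 fold change 0.60 ± 0.29, adjusted p = 0.154). Fmo4 differed by 0.065 ± 0.14 (adjusted p = 0.786). In the second comparison these 3 were higher in ORX_IH, by 0.61 ± 0.15 for Fmo1, 2.28 ± 0.33 for Fmo2 and 0.67 ± 0.15 for Fmo4. Of these calls 2 were left without Sham_Nx mouse 2 or with the 3 most pancreatic-rich libraries left out, and 0 without the 4 muscle-gene libraries. Fmo2 reached 60.0 to 132 CPM in ORX_IH and 15.7 to 33.7 CPM in Sham_Nx. The livers with both treatments thus lay outside the range of either single treatment in all but mouse 4. The exposure contrast called Fmo2 higher in hypoxia, but that call was lost in 13 of 31 alternatives, among them the fit without the 4 muscle-gene libraries.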

How the data were processed

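Liver RNA of male mice was sequenced in 4 groups. Per the labels' protocols, total RNA from frozen liver was poly(A)-selected and made into directional libraries. Per the submitters' processing notes, bcl2fastq 2.20, fastp 0.23.2, FastQC 0.11.9, MultiQC 1.12, kallisto 0.46.1 and GRCm39 were used. Neither the labels nor the notes name the release of the transcript annotation. The authors deposited estimated counts per gene, of which 27.5% of values are not whole, and they deposited log2 values scaled by TMM. kallisto divides reads among similar transcripts, so members of close gene families may exchange counts.

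The estimated counts were rounded. Of 36106 genes, 11341 were at 0 in every library and 16164 passed filterByExpr (minimum count 10). Differences were tested with edgeR 4.0.16 (R 4.3.3), TMM scaling, all 4 groups in 1 quasi-likelihood fit with 15 residual degrees of freedom, and Benjamini-Hochberg adjustment. Values after ± are SE unless named otherwise. DESeq2 1.42.0, limma 3.58.1, other scalings and filters, and fits without libraries were alternatives. The fit was tested on simulated counts. Replicate libraries differed by far more than sampling noise (chi-square per degree of freedom 20.7 to 198), and intervals of counting do not cover that spread. The p-values set each difference between groups against the spread of libraries within groups. The labels do not say how mice were assigned, and the p-values do not cover that.

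Genes named are the 15 largest changes in each direction among called genes with a mean of at least 1 CPM in the higher group and no overlap, up to 5 of smallest p per list, all Fmo genes tested, 12 genes of smallest p in each class, and the 10 of smallest p in each direction. Bcl6, Cux2, Cyp2b10, Cyp17a1, Sult1e1, Nipal1 and Cyp2g1 were named after their values were seen, as the listed genes that were not called. The members, lists and rules were chosen with earlier results of these data known. The exposure contrast was added after the data were seen. A gene that the rule names is not reported here.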

Additional observations from a re-analysis of the deposited data

Results flagged for a closer look

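Of 188 groups of 4 or 5 library values of the genes and lists named above, 25 held a value whose gap to its nearest neighbour was large against the group's range. Chance alone flags about 1 in 20 groups, and genes of 1 library are not independent.

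In ORX_Nx mouse 5 there were 8 such values, the highest of their group, for A1bg (310.2 CPM), Aldh1b1 (111.1), Ccnd1 (126.6), Cd79b (2.18), Gsta1 (14.1), Mki67 (9.55), Top2a (6.98) and the cell cycle list (226.6 summed CPM). ORX_Nx mouse 4 was the highest of its group for Mup20 (251.5 CPM), Mug1 (2928) and the neutrophil list (40.6 summed CPM). Sult3a1 stood out at 37.4 CPM in ORX_Nx mouse 2 and Obp2a at 0.0688 CPM in ORX_Nx mouse 3, the only library of its group with a count for that gene.

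In Sham_IH mouse 5 the female-biased genes A1bg (6.61 CPM), Cyp2a4 (1.33) and Slc22a26 (0.764) were the highest of the group, as were Cela1 (101.04) and the pancreatic list (1193 summed CPM). Sham_IH mouse 3 was the lowest for Clec4f (39.1 CPM), Cd5l (35.5) and the hepatocyte list (135102 summed CPM), and the highest for Stat5b (41.3). Apom reached 226.4 CPM in Sham_IH mouse 4. In ORX_IH mouse 4 Mup20 was the highest of its group (334 CPM) and Fmo2 the lowest (60.01 CPM).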

How the results depend on the processing

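The number of genes that differed between ORX_Nx and Sham_IH (3177) lay between 2313 and 3364 without any 1 library. It was 2057 with library numbers 1 to 16 only, which leaves out mouse 5 of each group, and 1841 without ORX_Nx mice 4 and 5. The second comparison (1394) gave 807 to 1884 without any 1 library, 132 without the 4 muscle-gene libraries and 504 without the 3 libraries highest in pancreatic genes (Sham_IH 5, Sham_Nx 5 and ORX_IH 1). The operation class (430) gave 289 to 501, 94 and 202 in the same order. The exposure class (49) gave 26 to 104, 3 and 15, and it was 30 with no filter on low counts and 105 with the DESeq2 Wald test. The exposure contrast (733 genes) gave 288 to 1005, 8 and 157, and 472 with no filter and 380 with numbers 1 to 16 only. The cause of these changes was not tested. Fewer samples enter each fit that leaves libraries out.

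Of 157 genes covered by the naming rule all but Fmo1, Fmo2 and Fmo4 were called. Of these, 101 lost the call in none of the 33 alternatives that tested them, and no called gene changed sign. Some genes were not tested in every alternative, and a missing adjusted p was counted as no loss. Fmo4 turned to -0.0054 without Sham_IH mouse 2, and its range without any 1 library reached 0.18. Mouse numbers did not pair the samples: same-numbered ORX_Nx and Sham_IH libraries correlated at -0.042 to 0.0477 in their deviations from the group means, and 1 of 10 libraries correlated best with its own number. With mouse number as a replicate block the counts were 2967, 1115, 360 and 36 for the comparisons and classes above, and 531 for the exposure contrast.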
